A study of Mus musculus with 8 samples.

Results

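The 9 genes described here encode transcription factors, and 1 coactivator, known from antibody-secreting plasma cells: Prdm1, Irf4, Xbp1, Ikzf1, Ikzf3, Pou2f2, Pou2af1, Tcf4 and Zbtb20. They were taken by name from the deposited table of raw read counts, which holds 27179 genes, and all 9 were among the 15073 genes that passed the filter on low counts. RNA was measured in plasma cells of C57BL/6 mouse bone marrow, sorted directly from the tissue as cells with GFP from a Blimp1-GFP reporter and with surface CD138. There were 4 groups of 2 libraries: wild type (WT) and Blimp1-/- (Blimp1KO) in batch 1, and WT and Xbp1-/- (Xbp1KO) in batch 2. Every group, WT included, was sorted with the reporter, which reads out the Prdm1 locus. The names of the deposited per-library tables of batch 2 carry the tag Xbp1CreER for WT and Xbp1KO alike, where CreER is a Cre recombinase that tamoxifen activates, while the labels give no Cre, deleted exons, age or time after deletion. The series calls the replicates biological. The design asks what Blimp1 and XBP1 do in established plasma cells, and the WT group of the same batch served as the reference for each knockout.

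A B cell that becomes a plasma cell stops its B cell programme and builds a secretory apparatus for antibody. IRF4 starts this change and stays needed for plasma cell survival, Blimp1 (encoded by Prdm1) represses B cell genes and activates secretory ones, and XBP1, made from an mRNA that the stress sensor IRE1 splices, activates genes of the endoplasmic reticulum (ER). The Ikaros proteins, the octamer-binding factor Oct-2 with its coactivator OCA-B, the E protein E2-2 and ZBTB20 act in mature B cells and plasma cells beside these 3.

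The windows that lie just before the annotated transcription start are shown for the 3 members whose levels varied together over the libraries (Prdm1, Irf4 and Pou2af1) and for Xbp1, whose level was lower in both knockouts. Each is the 250 bases upstream of a RefSeq start in GRCm38.p6, written 5′ to 3′ on the strand of the gene, and capitals mark matches, on either strand, to the octamer ATGCAAAT, to GAAAGT (the core shared by Blimp1 and IRF sites), to ACGT (the core of XBP1 sites) or to GGGAA (the Ikaros core). Prdm1 is chr10:44458749-44458998 on the minus strand, in an intron of a longer annotated Prdm1 transcript. Irf4 is chr13:30748983-30749232, Pou2af1 is chr9:51213440-51213689 and Xbp1 is chr11:5520391-5520640, all on the plus strand. The Pou2af1 and Xbp1 windows overlap no annotated gene, and the Irf4 window touches an annotated Irf4 exon over 7 bases.
Prdm1: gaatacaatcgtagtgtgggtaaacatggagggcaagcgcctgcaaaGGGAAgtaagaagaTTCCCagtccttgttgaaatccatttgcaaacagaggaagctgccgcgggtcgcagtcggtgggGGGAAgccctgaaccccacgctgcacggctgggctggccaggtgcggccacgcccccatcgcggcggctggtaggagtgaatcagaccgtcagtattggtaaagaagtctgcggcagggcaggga
Irf4: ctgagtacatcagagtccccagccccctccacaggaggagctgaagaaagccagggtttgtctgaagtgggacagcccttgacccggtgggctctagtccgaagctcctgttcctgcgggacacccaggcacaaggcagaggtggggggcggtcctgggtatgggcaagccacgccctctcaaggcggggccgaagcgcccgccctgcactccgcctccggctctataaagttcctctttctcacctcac
Pou2af1: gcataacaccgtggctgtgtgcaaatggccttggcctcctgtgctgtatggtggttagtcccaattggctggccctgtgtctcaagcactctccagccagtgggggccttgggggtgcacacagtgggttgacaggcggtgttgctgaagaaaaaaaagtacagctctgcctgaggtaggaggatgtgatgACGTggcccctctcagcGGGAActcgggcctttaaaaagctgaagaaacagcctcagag
Xbp1: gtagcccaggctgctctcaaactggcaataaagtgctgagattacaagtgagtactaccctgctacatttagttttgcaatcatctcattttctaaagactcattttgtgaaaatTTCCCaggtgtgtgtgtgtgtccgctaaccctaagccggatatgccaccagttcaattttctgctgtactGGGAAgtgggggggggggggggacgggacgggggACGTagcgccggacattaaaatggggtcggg

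The Prdm1 window held 3 GGGAA matches, the Xbp1 window 2 and the Pou2af1 window 1, and the Irf4 window held none. ACGT was present at 1 place each in the Xbp1 and Pou2af1 windows. Of the 32851 RefSeq windows of the same length, 56.24% held GGGAA, 26.88% ACGT, 12.32% GAAAGT and 1.60% ATGCAAAT, and 66.22% held an E box (CANNTG, the site of E proteins, not capitalised here). The 4 motifs in capitals do not contain one another, though they can overlap at their ends. RefSeq windows were found for 7 of the 9 members, 8 windows in all, and among these GAAAGT stood in the Zbtb20 window alone, at 2 places, while no window held the octamer. A match is a description of these letters and not evidence of binding.

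Library totals ran from 44012152 to 145411827 counts. Immunoglobulin genes took 25.2% to 75.7% of them, which left 19.0 M to 72.9 M (M, mega) for other genes. The members had between 380 counts (Zbtb20, WT replicate 2) and 249351 counts (Xbp1, WT replicate 3) per library. Levels between libraries are given as CPM, the usual depth-scaled count, with library sizes scaled by TMM, which sets the bulk of the genes equal; levels between genes are given as FPKM, the same value per kilobase of counted gene length. All 11 defining plasma cell markers (among them Sdc1, which encodes CD138, Jchain and Mzb1) were detected in every group. This list includes Prdm1, Irf4 and Xbp1 of the 9 members. The cells were sorted on CD138 and the Prdm1 reporter, so detection of Sdc1 and Prdm1 is no separate check of identity. The sum of the 11 markers was 722300 to 873100 CPM in batch 1 WT and 265200 to 354000 CPM in Blimp1KO. It was 387000 to 491200 CPM in batch 2 WT and 73720 to 98210 CPM in Xbp1KO, and most of it is immunoglobulin mRNA. In sorted populations, fewer cells that express a gene and less mRNA per cell cannot be told apart.

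In batch 1 WT the members spanned a wide range of mRNA level per gene length. Xbp1 led with 1670 ± 1.202 FPKM (SD, n = 2), a level above that of 98.97% of the genes tested. Pou2af1 followed with 373 ± 35.0 FPKM and Irf4 with 101 ± 6.11 FPKM. Prdm1 stood at 59.1 ± 0.674 FPKM and Ikzf3 at 51.3 ± 0.348 FPKM. Ikzf1 had 32.7 ± 1.84 FPKM and Tcf4 19.4 ± 0.0330 FPKM. Pou2f2 with 6.75 ± 1.08 FPKM and Zbtb20 with 3.51 ± 1.38 FPKM were the lowest, and Zbtb20 exceeded 55.50% of the genes tested. No neighbours in this order overlapped between the 2 libraries of WT batch 1.

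The order was the same in batch 2 WT and in Xbp1KO. It differed at 1 place in Blimp1KO, where Ikzf3 (58.2 ± 4.93 FPKM) stood above Prdm1 (40.7 ± 9.18 FPKM) without overlap. Neighbours that overlapped were Prdm1 and Ikzf3 in batch 2 WT, Prdm1 and Ikzf1 in Blimp1KO, and Pou2f2 and Zbtb20 in both knockouts. Xbp1 remained the highest of the 9 in Xbp1KO, with 669 ± 77.2 FPKM, above 99.41% of the genes tested there.

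**Figure D1:**
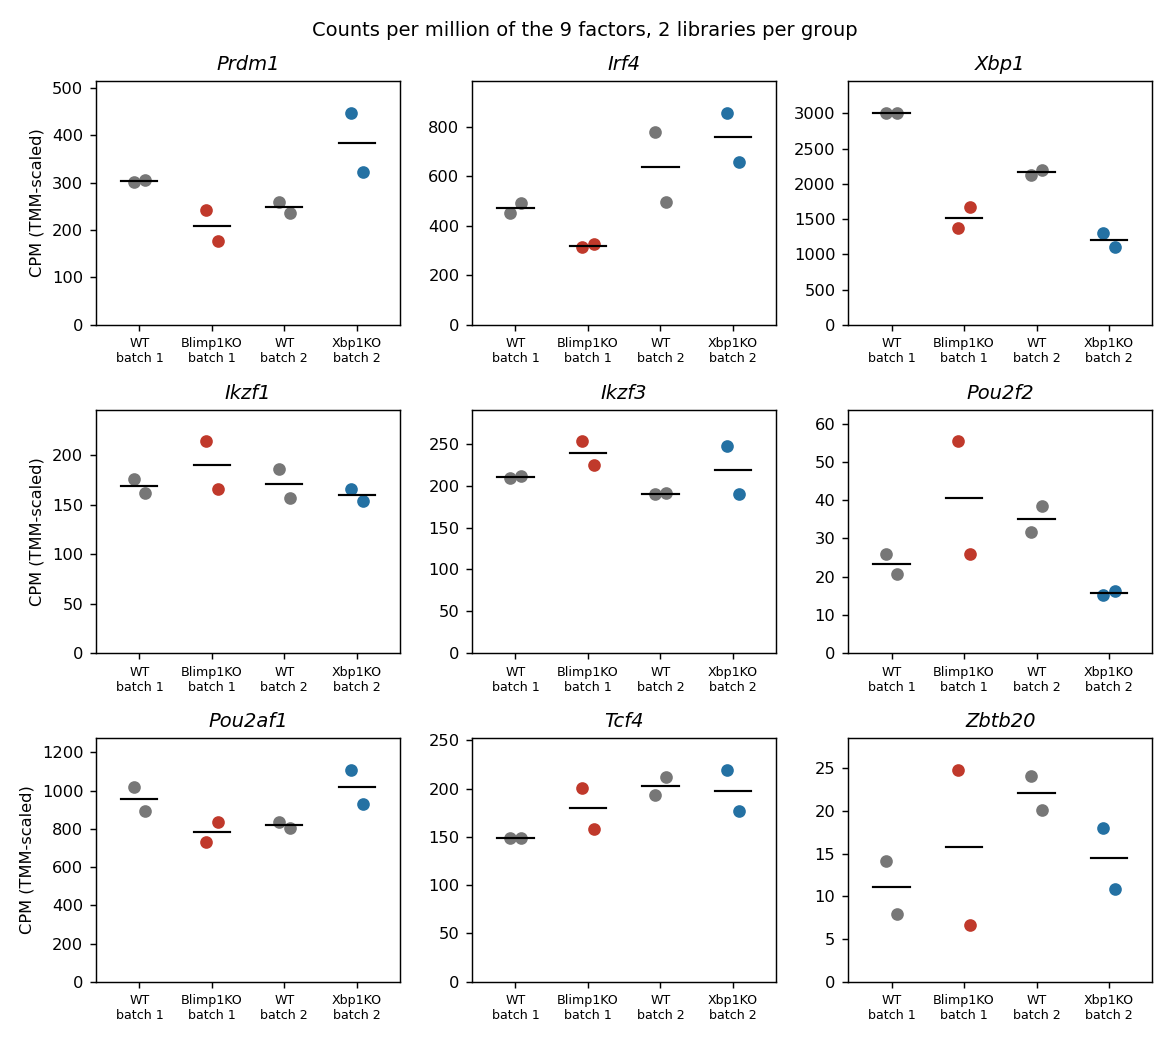
CPM (vertical axis, linear, from 0) of each of the 9 factors in the 8 libraries; points are libraries, 2 per group, and bars are group means. Both Xbp1KO libraries lie above both WT libraries of batch 2 for Prdm1 and below them for Xbp1 and Pou2f2, while the 2 Blimp1KO libraries stand far apart for Pou2f2 (55.4 and 25.9 CPM) and Zbtb20 (24.8 and 6.67 CPM).

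No member passed an adjusted p below 0.05 (edgeR's quasi-likelihood test, Benjamini-Hochberg adjustment over 15073 genes) in either knockout, in the difference between the 2 knockout effects, or between the WT groups of the 2 batches. Among all genes, 0.862% were called in Blimp1KO, 7.70% in Xbp1KO, 1.68% in the difference and 2.81% between the WT groups, so 0 of 9 is not a result about these genes in particular. At an unadjusted p below 0.05 there were 2 of the 9 in Blimp1KO (Xbp1 and Pou2f2), 3 in Xbp1KO (Prdm1, Xbp1 and Pou2f2), 2 in the difference (Prdm1 and Pou2f2) and 0 between the WT groups. Over all 15073 genes, 2093, 3552, 2399 and 4087 had such a p in these comparisons, in the same order. DESeq2 called Xbp1 in Blimp1KO, Xbp1 and Pou2f2 in Xbp1KO, and Pou2f2 and Prdm1 in the difference. Over all genes DESeq2 called 862 of 12735 in Blimp1KO, 2220 of 14196 in Xbp1KO and 1180 of 13027 in the difference. Beside these totals, the member counts are not a result about the 9 in particular. The log2 fold changes of the 9 ran from -0.98 to 0.81 in Blimp1KO, with a median of 0.17 against -0.01 over all genes, and from -1.14 to 0.63 in Xbp1KO, with a median of -0.03 against 0.08 over all genes.

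Libraries of the 2 groups did not overlap for 7 members in Blimp1KO (3 higher and 4 lower than WT). The background of genes without overlap was 20.9% higher and 22.1% lower. In Xbp1KO there were 5 such members (2 higher, 3 lower), against 31.8% and 25.8% of all genes. Between the WT groups, 8 of the 9 did not overlap (4 higher and 4 lower in batch 2), against 32.3% and 35.3% of all genes. By this count the 2 WT groups stood apart for more members than either knockout did from its WT. Over all genes, too, both shares were largest between the WT groups, so this order is not a result about the 9 in particular.

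**Figure D2:**
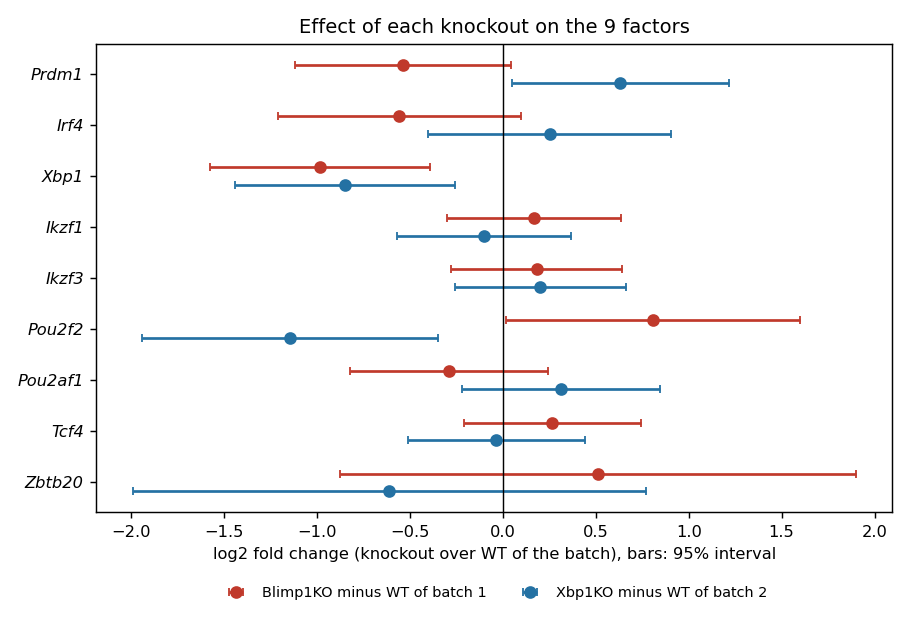
Log2 fold change (horizontal axis) of each factor in Blimp1KO (red) and Xbp1KO (blue) against WT of the same batch, with 95% intervals from the fit to all 8 libraries. The intervals of Xbp1 lie below 0 in both knockouts, and those of Pou2f2 lie on opposite sides of 0.

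Prdm1, which encodes Blimp1 (Entrez 12142, chr10:44437174-44528558 in GRCm38.p6), had 301 and 306 CPM in batch 1 WT and 243 and 176 CPM in Blimp1KO, and both knockout libraries lay below both WT libraries. On the log2 scale this was a fold change of -0.54 ± 0.25 (SE; 2 libraries in each group, edgeR adjusted p = 0.401), with a 95% interval from -1.12 to 0.04. Batch 2 WT had 259 and 237 CPM and Xbp1KO 447 and 322 CPM, a log2 fold change of 0.63 ± 0.25 (edgeR adjusted p = 0.180; interval 0.05 to 1.21). Both Xbp1KO libraries lay above every other library of the series. Whole-gene counts hold reads from outside a deleted part, so the reads left in Blimp1KO do not check its label. The 2 effects differed by -1.17 ± 0.35 (Blimp1KO minus Xbp1KO, edgeR adjusted p = 0.158), and DESeq2 gave this difference an adjusted p of 0.0162.

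Irf4, the interferon regulatory factor that plasma cells depend on (Entrez 16364, chr13:30749233-30766981), had 451 and 491 CPM in batch 1 WT and 315 and 325 CPM in Blimp1KO. The knockout libraries lay close together and below WT, at a log2 fold change of -0.56 ± 0.28 (edgeR adjusted p = 0.448; interval -1.21 to 0.10). In batch 2 it had 778 and 495 CPM in WT and 858 and 659 CPM in Xbp1KO, and the groups overlapped (0.25 ± 0.28, edgeR adjusted p = 0.649). The WT libraries of batch 2 were further apart for Irf4 than those of batch 1, and the fold in Xbp1KO turned sign without Xbp1KO replicate 1 (-0.03) or without WT replicate 4 (-0.04).

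Xbp1 (Entrez 22433, chr11:5520641-5525993) had 3005 and 3008 CPM in batch 1 WT and 1371 and 1671 CPM in Blimp1KO. In batch 2 it had 2129 and 2203 CPM in WT and 1302 and 1105 CPM in Xbp1KO. Each knockout lay below its WT without overlap, and the 4 knockout libraries lay below all 4 WT libraries. The log2 fold change was -0.98 ± 0.25 in Blimp1KO (edgeR adjusted p = 0.141; interval -1.58 to -0.39) and -0.85 ± 0.25 in Xbp1KO (edgeR adjusted p = 0.0939; interval -1.44 to -0.26). The difference between the 2 effects was -0.14 ± 0.35 (edgeR adjusted p = 0.914), with an interval from -0.97 to 0.70 that leaves room for a sizeable difference in either direction. DESeq2 called Xbp1 in both knockouts (adjusted p = 2.06e-05 and 9.15e-05), and edgeR called it in Xbp1KO once immunoglobulin genes were removed (adjusted p = 0.0324). Counts of the whole gene do not separate spliced from unspliced Xbp1 mRNA and include exons outside the deletion.

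The direction of these values rests on the scaling. With library sizes taken as total counts, in which immunoglobulin mRNA weighs fully, the median of all genes moved to 0.78 in Blimp1KO, 1.24 in Xbp1KO, -0.40 in the difference and 0.56 between the WT groups. On that scale Prdm1 and Irf4 were at 0.27 and 0.23 in Blimp1KO and Xbp1 at 0.30 in Xbp1KO, all positive, and below the median of all genes in each case. Xbp1 in Blimp1KO kept its sign at -0.20. Prdm1 and Irf4 in Xbp1KO were at 1.78 and 1.42, above that median.

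The Ikaros family members of plasma cells stayed near WT. Ikzf1, which encodes Ikaros (Entrez 22778, chr11:11684962-11772930), had 176 and 162 CPM in batch 1 WT, 214 and 166 CPM in Blimp1KO, 186 and 157 CPM in batch 2 WT and 166 and 154 CPM in Xbp1KO. Its groups overlapped in both batches, with log2 fold changes of 0.17 ± 0.20 (interval -0.30 to 0.64) and -0.10 ± 0.20 (interval -0.57 to 0.37). Ikzf3, which encodes Aiolos (Entrez 22780, chr11:98464610-98546031), had 209 and 211 CPM in batch 1 WT, 253 and 224 CPM in Blimp1KO, 190 and 191 CPM in batch 2 WT and 247 and 190 CPM in Xbp1KO. Both Blimp1KO libraries lay slightly above WT (0.18 ± 0.19, interval -0.28 to 0.64), and Xbp1KO replicate 1 alone stood above its WT (0.20 ± 0.19, interval -0.26 to 0.66; -0.08 without that library). The edgeR adjusted p was between 0.598 and 0.811 for both genes in both knockouts. The intervals leave out a change of 1 log2 unit in either direction for these 2 genes, on the TMM scale.

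Pou2f2, which encodes Oct-2, an octamer-binding factor of B cells (Entrez 18987, chr7:25087350-25180797), had the largest difference between its 2 knockout effects among the 9. It had 25.8 and 20.6 CPM in batch 1 WT and 55.4 and 25.9 CPM in Blimp1KO, where replicate 1 was high and replicate 2 just above WT. The log2 fold change was 0.81 ± 0.34 (edgeR adjusted p = 0.349; interval 0.02 to 1.60), and without Blimp1KO replicate 2 it was 1.26 (edgeR adjusted p = 0.0426). Batch 2 WT had 31.7 and 38.4 CPM and Xbp1KO 15.3 and 16.4 CPM, the lowest of all 8 libraries, for a log2 fold change of -1.14 ± 0.34 (edgeR adjusted p = 0.0929; interval -1.94 to -0.35). In the 4 libraries of batch 2 alone it passed the test at -1.15 (edgeR adjusted p = 0.0164), as it did without Blimp1KO replicate 1 (adjusted p = 0.00854) or replicate 2 (adjusted p = 0.00835). The effects differed by 1.95 ± 0.47 (edgeR adjusted p = 0.101; interval 0.83 to 3.07), and the difference was called without Blimp1KO replicate 1 (1.37, adjusted p = 0.0371) and without replicate 2 (2.41, adjusted p = 0.0149). With total counts as library size, Pou2f2 was at 0.01 in Xbp1KO, where the median of all genes was 1.24.

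Markers of mature B cells did not move as one list. The 11 markers summed to 988 to 1074 CPM in batch 1 WT and 1541 to 2190 CPM in Blimp1KO, with none at 0, and 1 of them, Faim3, passed the test in edgeR (76.0 and 48.7 CPM in WT, 393 and 581 CPM in Blimp1KO). Cd79b, a subunit of the B cell receptor, was at 376 and 372 CPM in WT and 536 and 911 CPM in Blimp1KO, while its partner Cd79a was lower in Blimp1KO (425 and 418 against 202 and 290 CPM). In batch 2 the list summed to 732 to 856 CPM in WT and 880.2 to 963 CPM in Xbp1KO, an order that rests on Cd79b: without it, an alternative chosen after seeing the data, the sums were 449.5 to 545.5 CPM in WT and 348 to 368 CPM in Xbp1KO. Without Cd79b the sum in Blimp1KO was still above WT (1006 to 1279 against 617 to 698 CPM). Cr2 was the 1 marker of the list that passed the test in Xbp1KO, and it rose at a low level. It had 1.48 and 0.980 CPM in batch 2 WT and 5.68 and 5.55 CPM in Xbp1KO (2.19 ± 0.42, edgeR adjusted p = 0.0273). The part of other cells in the Pou2f2 values was not tested.

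Pou2af1, which encodes OCA-B, the coactivator of Oct-1 and Oct-2 (Entrez 18985, chr9:51213690-51240079), went the other way from Pou2f2 in both batches. It had 1021 and 894 CPM in batch 1 WT and 730 and 836 CPM in Blimp1KO, then 837 and 805 CPM in batch 2 WT and 1109 and 932 CPM in Xbp1KO. Neither batch overlapped, but the differences were small, at -0.29 ± 0.23 (edgeR adjusted p = 0.671; interval -0.82 to 0.24) and 0.31 ± 0.23 (edgeR adjusted p = 0.466; interval -0.22 to 0.85). The difference of effects was -0.60 ± 0.32 (edgeR adjusted p = 0.428).

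The ratio of Pou2af1 to Pou2f2 per gene length, which no library scaling enters, was 53.0 and 58.2 in batch 1 WT, 17.7 and 43.2 in Blimp1KO, 35.4 and 28.1 in batch 2 WT and 96.8 and 76.3 in Xbp1KO. Coactivator mRNA thus exceeded that of its partner by at least 17.7 times in every library, least in Blimp1KO replicate 1 and most in Xbp1KO. The ratio of Xbp1 to Prdm1 was 28.5 and 28.1, then 16.2 and 27.2 in batch 1, and 23.4 and 26.6, then 8.31 and 9.82 in batch 2. Xbp1KO stood apart from the other groups here. The ratio of Irf4 to Prdm1 overlapped in batch 1 (1.64 and 1.76 in WT, 1.43 and 2.03 in Blimp1KO), and in batch 2 Xbp1KO (2.11 and 2.25) lay just below WT (3.29 and 2.30). These ratios were chosen after the values were seen and have no test.

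Tcf4, which encodes the E protein E2-2 (Entrez 21413, chr18:69343429-69687967), had 149 CPM in both batch 1 WT libraries, 200 and 158 CPM in Blimp1KO, 193 and 212 CPM in batch 2 WT and 219 and 176 CPM in Xbp1KO. Blimp1KO lay above its WT (0.27 ± 0.20, edgeR adjusted p = 0.660; interval -0.21 to 0.74). In Xbp1KO the groups overlapped (-0.03 ± 0.20, edgeR adjusted p = 0.943; interval -0.51 to 0.44), and the sign turned against pooled WT (0.17).

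Zbtb20, which encodes a BTB zinc-finger factor known for long-lived antibody responses (Entrez 56490, chr16:42875689-43634392), was the least abundant member. It had 14.1 and 7.98 CPM in batch 1 WT, 24.8 and 6.67 CPM in Blimp1KO, 24.0 and 20.1 CPM in batch 2 WT and 18.1 and 10.8 CPM in Xbp1KO. Blimp1KO held both the highest and the lowest value of the series. The log2 fold change there was 0.51 ± 0.59 (edgeR adjusted p = 0.805; interval -0.88 to 1.90) and became -0.68 without replicate 1. Xbp1KO lay below its WT (-0.61 ± 0.58, edgeR adjusted p = 0.596; interval -1.99 to 0.77). The widest interval of the 9 was that of Zbtb20 in both knockouts. In GENCODE no other gene shares more than 0.42% of the exon bases of any member, and the antisense gene over Zbtb20 shares 0.34%; the strand setting of the counting is not given in the sources used here.

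Summed over the 9, member counts made up 1.24% and 1.30% of the non-immunoglobulin counts in batch 1 WT and 0.809% and 0.832% in Blimp1KO. In batch 2 they made up 1.23% and 1.17% in WT and 1.12% and 1.00% in Xbp1KO. Both knockouts lay below WT, by -0.452 and -0.136 percentage points, each with an exact 2-sided permutation p of 0.333, the smallest that 2 against 2 libraries allow. As a share of all counts the order turned: 0.302% and 0.317% became 0.360% and 0.346% in batch 1, and 0.373% and 0.412% became 0.787% and 0.751% in batch 2. Xbp1, the gene deleted in Xbp1KO, holds more of this sum than any other member. In batch 2 the 9 summed to 4628.5 and 4357.6 CPM in WT and to 4382.4 and 3565.4 CPM in Xbp1KO. Of this, Xbp1 made up 2129 and 2203 CPM in WT and 1302 and 1105 CPM in Xbp1KO. By log2 fold change, 4 members were higher and 5 lower in Xbp1KO, and 5 were higher and 4 lower in Blimp1KO. The lower sums therefore do not describe the 9 as a set.

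Over the 8 libraries, after the mean WT log2 CPM of the batch was taken away, Prdm1, Irf4 and Pou2af1 varied together (Pearson's r of 0.851 for Prdm1 and Irf4, 0.865 for Prdm1 and Pou2af1, and 0.836 for Irf4 and Pou2af1). Pou2f2 ran against all 3, with r of -0.759, -0.787 and -0.898. Ikzf1, Tcf4 and Zbtb20 formed another group (r from 0.727 to 0.897), to which Pou2f2 was close (0.711 to 0.770). Xbp1 was near 0 with Prdm1 (0.056) and Pou2f2 (-0.010). These are descriptions over 8 libraries that share batches, controls and scaling.

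**Figure D3:**
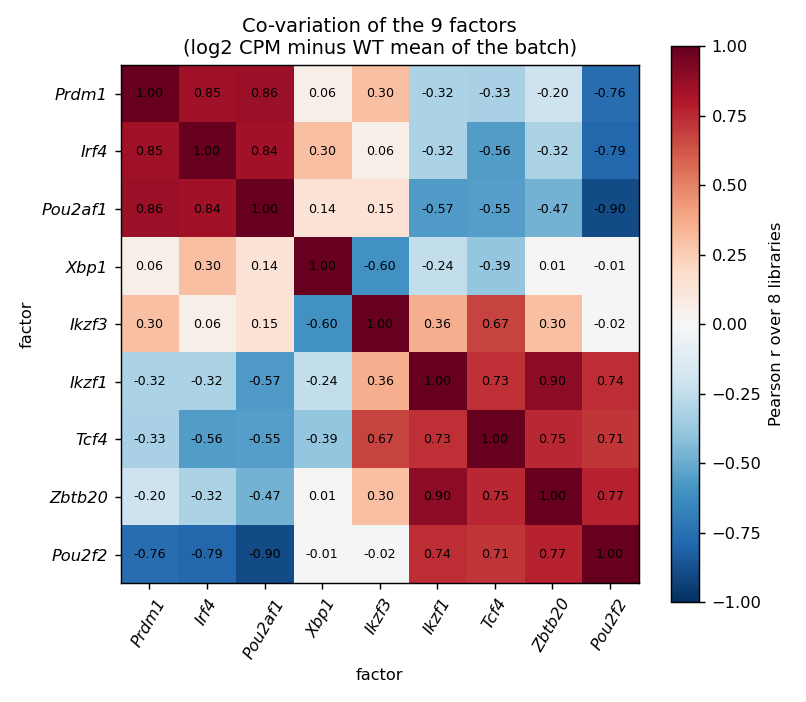
Pearson's r between each pair of factors over the 8 libraries, computed on log2 CPM minus the WT mean of the batch (colour scale from -1 to 1). Prdm1, Irf4 and Pou2af1 form a block of r at or above 0.836, and Pou2f2 is negative with each of the 3.

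Among 6921 other genes of moderate or high level, those most like each member by the same measure were as follows. Prdm1 was followed most closely by Ccdc47, an ER membrane protein (r = 0.997), Ttc17 (0.996) and Aldh1l2, a mitochondrial folate enzyme (0.994). Nearest to Irf4 were Amz2 (0.978), Prpf19 (0.977) and Zscan21 (0.970). Xbp1 was most like Abca7 (0.993), Thbd, which encodes thrombomodulin (0.987), and Crls1, the cardiolipin synthase (0.986). Thbd had log2 fold changes of -1.78 in Blimp1KO and -1.68 in Xbp1KO. With Pou2f2 went Lpp (0.993), Cybb, a subunit of the phagocyte NADPH oxidase (0.986), and Nedd4, a ubiquitin ligase (0.982). Lpp was at 1.19 in Blimp1KO and -1.64 in Xbp1KO.

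The nearest genes to Pou2af1 were Pex19 (0.990), Calr, which encodes the ER chaperone calreticulin (0.985), and Cmpk1 (0.975). Ikzf1 was nearest to Ambra1 (0.966), Ikzf3 to Tomm70a (0.953), Tcf4 to Plekha3 (0.976) and Zbtb20 to Plekhm3 (0.973). The gene ranked 3 of the 6921 still had an r of at least 0.946 for each of the 9. These r values are a description, and how often values this high arise over 8 libraries was not tested.

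The relatives of each member were taken from lists of their families. Of the 5 Ikaros genes, 0 were called in either knockout, and Ikzf1 and Ikzf3 were far above the rest, with Ikzf5 at 9.34 to 20.5 CPM and Ikzf2 and Ikzf4 at no more than 1.01 CPM. Ikzf5 was higher in batch 2 WT than in batch 1 WT (0.81 ± 0.15, edgeR adjusted p = 0.0458), a call lost without any 1 WT or Xbp1KO library. Of the POU2 factors and their coactivator, 3 of 4 were tested and 0 called. Pou2f1, which encodes Oct-1, was at 28.0 and 29.5 CPM in batch 1 WT, 34.8 and 13.4 CPM in Blimp1KO, 67.5 and 67.2 CPM in batch 2 WT, and 71.4 and 67.0 CPM in Xbp1KO. In Xbp1KO its log2 fold change stood at 0.04 ± 0.38, where Pou2f2 had -1.14.

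Among E proteins and their Id inhibitors, 6 of 7 were tested and 0 called. Tcf3, which encodes E2A, had log2 fold changes of -0.34 ± 0.14 in Blimp1KO and 0.50 ± 0.14 in Xbp1KO (edgeR adjusted p = 0.358 and 0.0898), and per gene length the ratio of Tcf4 to Tcf3 was 0.724 and 0.751 in batch 1 WT, 1.26 and 0.987 in Blimp1KO, 1.085 and 1.14 in batch 2 WT and 0.833 and 0.704 in Xbp1KO. The ratio did not overlap in either batch and pointed in opposite directions. Id3, whose product blocks E protein dimers, had 0.408 and 0.420 CPM in batch 1 WT against 10.9 and 16.3 CPM in Blimp1KO, with a log2 fold change of 5.03 ± 1.22 that missed the threshold (edgeR adjusted p = 0.128).

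Interferon regulatory factors held 1 called gene in each direction in Xbp1KO and 0 in Blimp1KO among 9 tested. Irf8, which encodes a factor that opposes plasma cell formation, fell from 46.2 and 41.8 CPM in WT to 22.4 and 26.2 CPM in Xbp1KO (-0.86 ± 0.20, edgeR adjusted p = 0.0483). Irf7, an activator of interferon genes, rose from 12.3 and 10.3 to 18.0 and 19.6 CPM (0.73 ± 0.17, edgeR adjusted p = 0.0468). The ratio of Irf4 to Irf8 per gene length was 10.2 and 7.15 in batch 2 WT and 23.2 and 15.2 in Xbp1KO, and 4.49 and 6.72 in batch 1 WT and 3.74 and 3.26 in Blimp1KO. Irf5 had 52.0 and 50.5 CPM in batch 1 WT and 87.2 and 85.5 CPM in Blimp1KO (0.75 ± 0.14, edgeR adjusted p = 0.0621), and 40.6 and 43.6 against 31.6 and 29.2 CPM in batch 2 (-0.47 ± 0.14, edgeR adjusted p = 0.0880). The difference between its 2 effects passed the test (1.22 ± 0.19, edgeR adjusted p = 0.0353), a call lost without any 1 WT or Xbp1KO library and with total counts. The calls of Irf7 and Irf8 were lost whenever 1 WT or Xbp1KO library was left out. That of Irf7 was also lost with RLE factors, without immunoglobulin genes, against pooled WT and in batch 2 alone, and held in 6 of 16 alternatives. Irf8 was at 0.31 with total counts as library size, below the median of all genes.

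Of 14 PRDM genes 10 were tested and 0 were called. Prdm2, a histone methyltransferase, was the next most abundant, with 47.7 to 120 CPM. Among the bZIP factors of ER stress, 9 of 11 were tested, 2 were called lower in Xbp1KO and 0 in Blimp1KO. Atf6b, a relative of the stress sensor ATF6, fell from 96.3 and 90.2 to 32.6 and 29.3 CPM (-1.59 ± 0.16, edgeR adjusted p = 0.00382), and its effect differed from that in Blimp1KO (1.31 ± 0.23, edgeR adjusted p = 0.0439; lost without any 1 WT or Xbp1KO library and with total counts). Creb3l1, a membrane-bound factor of secretory cells, fell from 9.75 and 6.46 to 2.30 and 2.10 CPM (-1.88 ± 0.24, edgeR adjusted p = 0.00766), a call lost without Xbp1KO replicate 2 (adjusted p = 0.0583). Atf6 and Atf4 were at -0.10 ± 0.27 and -0.19 ± 0.18 in Xbp1KO (edgeR adjusted p = 0.863 and 0.595) and at -0.53 ± 0.27 and -0.68 ± 0.18 in Blimp1KO (edgeR adjusted p = 0.463 and 0.163).

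Of 10 ZBTB factors, 1 was called in each knockout. Zbtb32, a repressor of class II expression, rose from 0.680 and 0.651 to 5.63 and 13.6 CPM in Blimp1KO (3.85 ± 0.59, edgeR adjusted p = 0.0419). Zbtb4 fell from 59.8 and 49.7 to 29.2 and 23.8 CPM in Xbp1KO (-1.05 ± 0.24, edgeR adjusted p = 0.0474). The call of Zbtb32 was lost in batch 1 alone and without any 1 WT library or Blimp1KO replicate 2, and that of Zbtb4 without any 1 WT or Xbp1KO library; with total counts Zbtb4 was at 0.11, below the median of all genes. Of 17 tested factors of the B cell stage, Spib, an ETS factor of B cells, was called higher in Blimp1KO (4.77 ± 0.62, edgeR adjusted p = 0.0326), at 156.5 and 197 CPM against 5.78 and 7.22 CPM, a call lost without any 1 WT library. The median of this list was 0.71 in Blimp1KO, against -0.01 over all genes. Pax5 (0.710 and 2.77 CPM) and Bcl6 (2.20 and 1.31 CPM), which hold the B cell and germinal centre programmes, stayed at low levels in Blimp1KO and did not pass the test. Myc rose in Xbp1KO from 9.09 and 8.20 to 15.9 and 15.9 CPM (0.88 ± 0.13, edgeR adjusted p = 0.0116). This call was lost without any 1 batch 2 library and against pooled WT. Summed markers of cycling cells were at 231 to 325 CPM in batch 2 WT and 588 to 703 CPM in Xbp1KO. In batch 1 they were at 120 to 151 CPM in WT and 58.5 to 70.8 CPM in Blimp1KO. The part of cycling cells in these results was not tested.

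**Figure D4:**
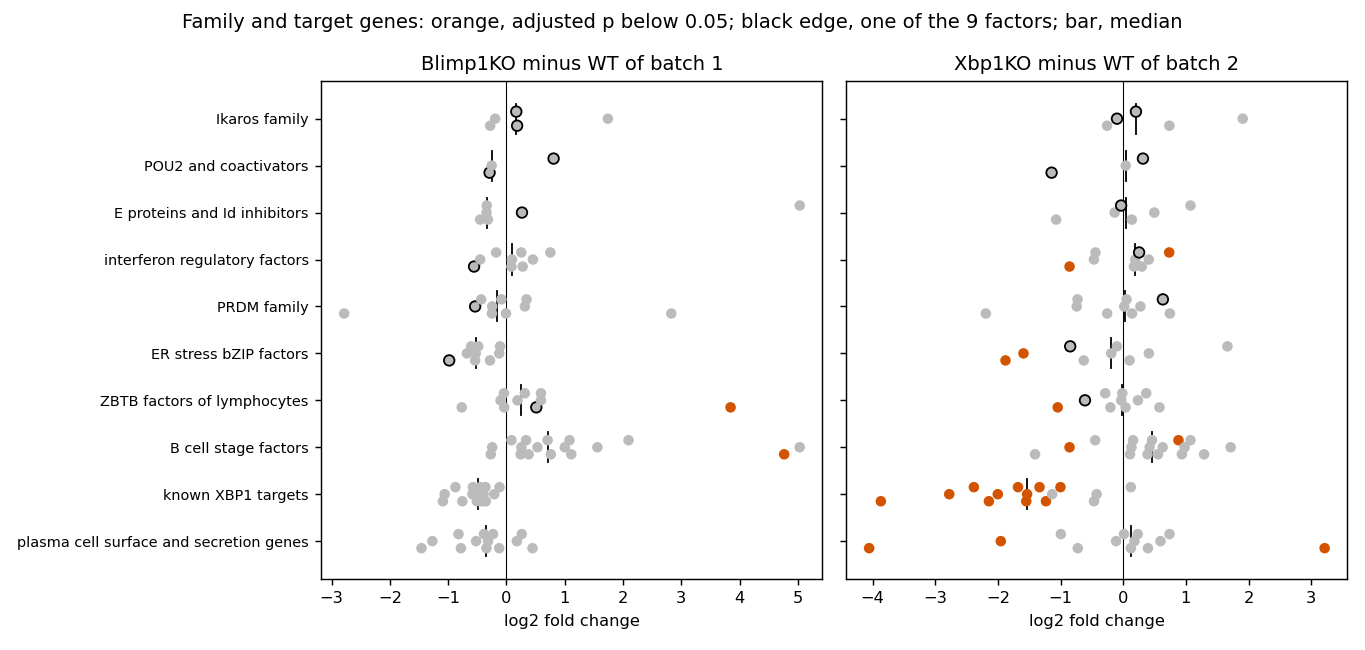
Log2 fold change (horizontal axis) of each tested gene of the family and target lists, with each knockout against WT of its batch in its own panel; orange points passed an adjusted p below 0.05, black edges mark the 9 factors and vertical bars are list medians. None of the 9 is orange, while 11 of the 15 known XBP1 targets are orange and negative in Xbp1KO, a count that is 4 without WT replicate 3 or Xbp1KO replicate 2.

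Of 15 known target genes of XBP1, 11 fell in Xbp1KO and 0 in Blimp1KO, with medians of -1.54 and -0.48 against 0.08 and -0.01 over all genes. The count of 11 became 4 without WT replicate 3 or Xbp1KO replicate 2, 6 without WT replicate 4 and 7 without Xbp1KO replicate 1; Dnajb9, Dnajc3, Sec24d and Hyou1 were called in each of these. With total counts 6 were lower and 3 higher in Xbp1KO, and DESeq2 called 4 lower in Blimp1KO. Dnajb9, a cochaperone of the ER, fell from 186 and 203 to 13.9 and 12.8 CPM (-3.87 ± 0.18, edgeR adjusted p = 0.000342), and Dnajc3 from 529 and 517 to 84.3 and 68.2 CPM (-2.78 ± 0.22, edgeR adjusted p = 0.00193). Both effects were larger than in Blimp1KO by the test of the difference (edgeR adjusted p = 0.00288 and 0.0220). The call of this difference was lost for Dnajb9 without WT replicate 2 (adjusted p = 0.0561) and for Dnajc3 without any 1 WT or Xbp1KO library. Sec24d, a COPII coat subunit of ER export, fell from 167 and 156 to 44.4 and 36.3 CPM in Xbp1KO (-2.003 ± 0.19, edgeR adjusted p = 0.00316). In Blimp1KO, where Xbp1 mRNA had a log2 fold change of -0.98, Dnajb9 was at 184 and 192 CPM against 220 and 215 CPM in WT (-0.21 ± 0.16, edgeR adjusted p = 0.661). Dnajb9 was among the least lowered targets there, and every target of the list had a negative log2 fold change. The lowest were Creld2 at -1.09 ± 0.25 and Edem1 at -1.06 ± 0.26 (edgeR adjusted p = 0.1098 and 0.1325). Hspa5, which encodes the chaperone BiP, was at 0.12 ± 0.30 in Xbp1KO (edgeR adjusted p = 0.854). Syvn1, a ubiquitin ligase of ER-associated degradation, had -1.0027 ± 0.19 in Xbp1KO (edgeR adjusted p = 0.0248) and -0.88 ± 0.19 in Blimp1KO (edgeR adjusted p = 0.0943); its call in Xbp1KO was lost without any 1 WT or Xbp1KO library, and with total counts it was at 0.14.

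Of 13 plasma cell surface and secretion genes tied to these factors, 2 fell and 1 rose in Xbp1KO, and 0 were called in Blimp1KO. Fkbp11, a prolyl isomerase of secretory cells, had -4.06 ± 0.34 (edgeR adjusted p = 0.00226) and Mzb1, a cochaperone of immunoglobulin assembly, -1.96 ± 0.29 (edgeR adjusted p = 0.0120), a call that Mzb1 lost without any 1 batch 2 library. Cd36, a scavenger receptor known as a target of Oct-2, rose from 3.62 and 6.66 to 49.99 and 45.15 CPM (3.21 ± 0.35, edgeR adjusted p = 0.00410), while Pou2f2 stood at its lowest. Crisp3, another gene tied to Oct-2, was at or below 0.272 CPM in every library. Ell2, an elongation factor that Blimp1 is known to regulate, had 364 and 346 CPM in batch 1 WT and 250 and 163 CPM in Blimp1KO (-0.78 ± 0.28, edgeR adjusted p = 0.276).

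Between the WT groups the largest difference among the 9 was that of Zbtb20 (1.00 ± 0.59, edgeR adjusted p = 0.307). Tcf4 was at 0.44 ± 0.20 (edgeR adjusted p = 0.207), Pou2f2 at 0.60 ± 0.33 (adjusted p = 0.285), Irf4 at 0.44 ± 0.28 (adjusted p = 0.339) and Xbp1 at -0.47 ± 0.25 (adjusted p = 0.260). Without Blimp1KO replicate 1 or 2, the difference in Pou2f2 was called (edgeR adjusted p = 0.0433 and 0.0426). Batch and any genetic difference between these 2 sets of controls cannot be told apart. Summed markers of neutrophils and monocytes (12 genes) varied within groups, from 13.3 to 601 CPM in batch 2 WT and from 44.1 to 1427 CPM in Xbp1KO. None was at 0 in a whole group. Itgam of this list passed the test in Xbp1KO, with 41.7 and 40.8 CPM against 7.66 and 14.8 CPM in WT (1.88 ± 0.32, edgeR adjusted p = 0.0187). In batch 1 it had 58.7 and 44.6 CPM in Blimp1KO against 12.3 and 15.5 CPM in WT (edgeR adjusted p = 0.0534). Erythroid and megakaryocyte markers (10 genes) summed to 23.7 to 223 CPM in batch 2 WT and 7.53 to 716 CPM in Xbp1KO. The part of other cells in the member values was not tested.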

How the data were processed

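RNA-seq of sorted mouse bone marrow plasma cells was analysed in 8 libraries, 2 per group. Per the file headers, the deposited table gives unnormalized counts for each Entrez gene, with the counted length of each gene. The deposited per-library files hold log2 FPKM for 13945 genes, per the file headers, and served as symbol source and as an alternative. Subread, featureCounts and limma and the builds GRCm38 and mm10 are named per the submitters' processing notes, without versions or roles. Strand setting and gene filters are not given in the sources used here. Of 27179 Entrez identifiers, 13860 took a symbol from the files and 11720 from RefSeq (GRCm38.p6), and 1599 had none. In batch 1, the 4 count columns each correlated best (r from 0.9994 to 0.9997) with the log2 FPKM file of the other replicate of the same group, so replicate numbers there follow the count table.

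Genes were filtered with filterByExpr (minimum count 10), library sizes scaled by TMM (factors 0.564 to 2.11), and a mean per group was fitted to all 8 libraries with edgeR 4.0.16 (R 4.3.3; 4 residual and 3.06 prior degrees of freedom). The standard error is the log2 fold change divided by the square root of F, and intervals are 95%. Calls used a Benjamini-Hochberg adjusted p below 0.05 over 15073 genes. FPKM was computed from the TMM-scaled counts and the deposited lengths. The p-values rest on 1 estimate of spread per gene, shared by the 4 groups and drawn from the 2 libraries of each. The groups were not equally spread. Over genes, the SD of the log2 difference between the 2 libraries was 0.646 in batch 1 WT and 0.811 in Blimp1KO. It was 1.05 in batch 2 WT and 1.26 in Xbp1KO. Alternatives were no filter, RLE factors, removal of the 261 immunoglobulin genes, pooled WT, 1 batch alone, a replicate block, DESeq2 1.42.0, limma 3.58.1 on the deposited log2 FPKM, each library left out, and, added after the data were seen, total counts without TMM and the B cell marker sum without Cd79b. Members and lists were chosen with earlier results of these data known. Every member is named. Family genes are named where called, with the most abundant others, and up to 3 called genes or 2 values per other list. Up to 3 genes most like each member (average log2 CPM of at least 3) are named too. For cell type markers this rule was not followed in full. Left out above were Ccr9 of the dendritic cell list (higher in Xbp1KO, edgeR adjusted p = 0.0118) and 2 cycling cell markers called higher in Xbp1KO. Syvn1, Hspa5, Creld2, Edem1, Sdc1, Jchain, Ell2, Crisp3, Pax5, Bcl6, Id3, Ets1, Bach2, Hyou1, Faim3, Cd79a and Cd79b fall outside this rule and were named after their values were seen. The fit was tested on simulated counts. Motifs were searched in RefSeq windows on both strands, and exon overlaps taken from GENCODE of the same build. One gene of the mature B cell marker list is not reported here and was left out of its sum.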

Additional observations from a re-analysis of the deposited data

Results flagged for a closer look

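Pou2f2, Prdm1 and Pou2af1 each had knockout libraries that lay wholly on one side of WT in batch 1 and wholly on the other side in batch 2. For Pou2f2 the effects differed by 1.95 log2 units (Blimp1KO higher than WT, Xbp1KO lower), with an edgeR adjusted p of 0.101. For Prdm1 the difference was -1.17 (Blimp1KO lower, Xbp1KO higher), with an edgeR adjusted p of 0.158. For Pou2af1 it was -0.60 in the same direction as Prdm1, with an edgeR adjusted p of 0.428. In edgeR, with the filter on low counts and all 8 libraries, none of the 3 differences passed the threshold. DESeq2 called those of Prdm1 (adjusted p = 0.0162) and Pou2f2 (adjusted p = 0.00159), and edgeR called that of Pou2f2 without the filter (adjusted p = 0.00193) and without Blimp1KO replicate 1 or 2 (adjusted p = 0.0371 and 0.0149).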

How the results depend on the processing

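No member was called in the 4 comparisons, and this count changed as follows. DESeq2 called 1 member in Blimp1KO, 2 in Xbp1KO and 2 in the difference of effects, beside 862 of 12735, 2220 of 14196 and 1180 of 13027 genes. Without a filter on low counts, 1 was called in Xbp1KO and 1 in the difference (Pou2f2), beside 1571 and 763 of 23678 genes. Removal of immunoglobulin genes gave 1 in Xbp1KO (Xbp1), beside 966 of 14635 genes. The libraries of batch 2 alone also gave 1 in Xbp1KO (Pou2f2), beside 1491 of 14882 genes. Total counts as library size gave 4 in Blimp1KO, 6 in Xbp1KO and 2 between the WT groups. Over all genes this setting called 5895, 9474 and 2836 of 15073 in these comparisons, in the same order. Beside these totals, the member counts are not a result about the members in particular. When 1 library was left out, each of the 4 counts ranged from 0 to 1, and the gene was Pou2f2, without Blimp1KO replicate 1 or 2; in Blimp1KO it was called without replicate 2.

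Total counts turned the sign of 17 values, all of them positive on that scale except the difference of effects of Ikzf1 (-0.0895) and Tcf4 (-0.0371), against medians of all genes of 0.78, 1.24, -0.40 and 0.56 in the 4 comparisons. They were, in Blimp1KO, Prdm1 (0.27), Irf4 (0.23) and Pou2af1 (0.50); in Xbp1KO, Ikzf1 (1.06), Pou2f2 (0.0054), Tcf4 (1.10), Xbp1 (0.30), Zbtb20 (0.53), Irf8 (0.31), Syvn1 (0.14) and Zbtb4 (0.11); and between the WT groups, Ikzf3 (0.44), Pou2af1 (0.36), Prdm1 (0.29) and Xbp1 (0.11). The difference of effects of Ikzf3 turned with RLE factors (0.0148), without immunoglobulin genes (0.0587) and in DESeq2 (0.0147). On the deposited FPKM, Ikzf3 (0.0288) and Pou2af1 (0.21) turned between the WT groups. Against pooled WT, Tcf4 in Xbp1KO (0.17) and Zbtb20 in Blimp1KO (-0.0746) turned. The cause was not tested.

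With 1 library left out, the values that turned were, in Xbp1KO, Ikzf1 (-0.23 to 0.0231), Ikzf3 (-0.0759 to 0.41), Irf4 (-0.0425 to 0.61) and Tcf4 (-0.28 to 0.14); in Blimp1KO, Zbtb20 (-0.68 to 1.17); in the difference, Ikzf3 (-0.18 to 0.31), Xbp1 (-0.28 to 0.11) and Zbtb20 (-0.0625 to 1.79); and between the WT groups, Ikzf1 (-0.11 to 0.14). The summed share of the members ranged from -0.480 to -0.416 percentage points in Blimp1KO and from -0.196 to -0.0762 in Xbp1KO over the left-out libraries and pooled WT.

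Over all genes, 130 were called in Blimp1KO. This became 517 without a filter, 862 in DESeq2, 5895 with total counts, 269 against pooled WT, 20 in batch 1 alone and 0 to 688 with 1 library left out. In Xbp1KO, 1160 became 2220 in DESeq2, 9474 with total counts and 225 to 2123 with 1 library left out. In the difference, 253 became 763, 1180 and 3 to 598 (no filter, DESeq2, 1 library out), and between the WT groups 423 became 1662, 1960, 2836 with total counts, and 14 to 2963. WT and Blimp1KO share replicate numbers 1 and 2 in batch 1. Over the 15073 genes, the log2 difference between replicates 1 and 2 in WT correlated at 0.218 with that in Blimp1KO. With 2 pairs of libraries, this does not establish a pairing. With the replicate block 0 members were called in Blimp1KO and 89 genes in all, and Zbtb32 was not called. The Xbp1KO and WT libraries of batch 2 share no number, so no block could be fitted there. Where 1 library of a group was left, it was taken to vary like the other groups. With 2 libraries a group, the 95% intervals of the members spanned from 0.92 to 2.78 log2 units in the knockouts.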

Other observations

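Other factors of the B cell stage showed values not given above. Ets1, an ETS factor that restrains plasma cell formation, had 47.8 and 55.4 CPM in batch 1 WT and 105 and 118 CPM in Blimp1KO (log2 fold change 1.11 ± 0.19, edgeR adjusted p = 0.0534), and 0.55 ± 0.19 in Xbp1KO (edgeR adjusted p = 0.125). Klf2, a factor of lymphocyte homing, differed between the WT groups, with 164 and 37.8 CPM in batch 1 and 7.15 and 8.81 CPM in batch 2 (-3.66 ± 0.63, edgeR adjusted p = 0.0371), a call that held in 9 of 14 alternatives and was lost without WT replicate 1 of batch 1, either batch 2 WT library or either Xbp1KO library. Bach2, a repressor of Prdm1, had 3.24 and 3.95 CPM in batch 1 WT and 8.56 and 11.5 CPM in batch 2 WT (1.48 ± 0.45, edgeR adjusted p = 0.112). Its log2 fold changes against WT did not pass the test in Blimp1KO (0.53 ± 0.45, edgeR adjusted p = 0.707), whose 5.97 and 4.44 CPM lay above both WT libraries, or in Xbp1KO (0.46 ± 0.44, edgeR adjusted p = 0.595), whose 7.46 and 20.1 CPM spanned WT. Klf2 is named by the rule for called genes, and Ets1 and Bach2 were chosen after their values were seen.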
